A study of Homo sapiens with 16 samples.

Results

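In Kasumi-1 cells made to degrade SMARCA5, nascent transcription after 24 h with the degrader dTAG-47 was compared with that after 2 h, the latest sampled time against the earliest treated one. PRO-seq lets polymerases that are engaged on DNA add labelled nucleotides in isolated nuclei and sequences the marked RNA, and it was read as counts in gene bodies. The comparison used 4 of the 14 libraries of the tagged line with counts, 2 at 24 h and 2 at 2 h. All carry the same number code in their library names, here called run 2. The names do not say what the codes stand for. A further 2 h library, from run 1, entered only a fit over all 14 libraries with a term for the run. Of 10304 listed transcripts, 10285 genes were tested, 1 row per symbol.

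Kasumi-1 cells derive from an acute myeloid leukaemia with the RUNX1-RUNX1T1 fusion gene. Every library compared came from cells whose SMARCA5 alleles were both fused to FKBP12F36V, a protein domain that dTAG-47 links to a ubiquitin ligase so that the fusion protein is destroyed. At 24 h and at 2 h the cells had 500 nM dTAG-47, and the same run also held untreated (0 h) and 6 h libraries of the same line, 2 each. The sources do not say whether the tagged line is a single clone, how much SMARCA5 protein remained at each time, or whether cells without dTAG-47 were kept for 24 h alongside, so time in culture and time with dTAG-47 cannot be told apart.

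SMARCA5 is the motor ATPase of the ISWI remodellers, complexes that slide and space nucleosomes and that help keep binding sites of CTCF open. Cholesterol synthesis, the pathway with the largest changes here, runs from acetyl-CoA through mevalonate to sterols, and its enzymes are transcribed under SREBP factors, membrane-held proteins that are cut free and move to the nucleus when sterols in the endoplasmic reticulum are low. In myeloid cells, receptors such as KIT and FLT3 and factors such as SPI1, ERG and IKZF1 set growth and maturation.

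Gene-body depth was 12251127 and 13146389 reads at 24 h and 13142254 and 14133770 reads at 2 h. The share of reads near promoters was 14.5% and 15.7% at 24 h, against 11.3% and 15.5% at 2 h, so the 2 h library A stood below the other 3. The 2 libraries of each time, A and B, differed by more than counting noise (chi-square per degree of freedom 3.01 at 24 h and 5.33 at 2 h) and were kept as separate samples. The series calls them biological replicates without saying that they came from separate cultures, so p-values measure the spread between these libraries, which may be technical. Levels are CPM, gene-body counts scaled to a common library size after TMM scaling, so they are relative to the rest of the genome's transcription, and a level may move with the number of cells of a kind or with transcription per cell, which bulk libraries cannot tell apart. Of 10 markers of the line, 8 were measured (RUNX1T1 and ANPEP were not in the tables), while of 16 erythroid and megakaryocyte markers 2 were, and 0 of 17 lymphoid and 0 of 6 stromal ones. The targeted gene itself, SMARCA5 (NM_003601, hg19 chromosome 4, 144434616 to 144478642), had 89.2 and 105 CPM at 24 h and 105 and 90.1 CPM at 2 h. The groups overlapped (adjusted p = 0.991, edgeR), and the tag acts on the protein, so this level does not report the degradation.

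Promoter sequences are shown for 7 genes that stand for the groups described below. They are the 250 bases before each RefSeq start on GRCh38.p14, printed on the gene's own strand, and the counts themselves were listed on hg19. For the cholesterol pathway, CCAAT boxes, the binding letters of NF-Y, are in capitals on either strand (CCAAT or ATTGG). MVK and its neighbour MMAB start back to back and share these boxes, at chr12:109573544-109573793 on the plus strand and chr12:109573505-109573754 on the minus strand. MSMO1 is at chr4:165327419-165327668 on the plus strand.
MVK: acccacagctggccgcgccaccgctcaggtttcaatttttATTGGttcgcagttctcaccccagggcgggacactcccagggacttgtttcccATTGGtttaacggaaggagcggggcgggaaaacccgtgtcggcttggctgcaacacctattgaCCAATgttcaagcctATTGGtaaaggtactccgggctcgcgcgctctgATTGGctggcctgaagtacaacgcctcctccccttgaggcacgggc
MMAB: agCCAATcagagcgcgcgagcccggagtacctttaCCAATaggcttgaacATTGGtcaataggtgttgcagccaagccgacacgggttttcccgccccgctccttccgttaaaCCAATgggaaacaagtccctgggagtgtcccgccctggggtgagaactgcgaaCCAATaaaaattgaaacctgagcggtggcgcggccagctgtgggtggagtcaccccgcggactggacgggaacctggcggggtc
MSMO1: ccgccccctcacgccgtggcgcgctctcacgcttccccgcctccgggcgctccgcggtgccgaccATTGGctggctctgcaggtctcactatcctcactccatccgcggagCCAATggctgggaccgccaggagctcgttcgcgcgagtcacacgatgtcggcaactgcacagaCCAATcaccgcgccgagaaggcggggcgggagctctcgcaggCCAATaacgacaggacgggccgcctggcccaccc
SREBF2 encodes the SREBP factor that drives cholesterol genes, and capitals mark the match to TCACNCCAC, the letters of a sterol regulatory element, the 1 found in the 15 sterol-sensing windows searched (chr22:41832855-41833104, plus strand).
SREBF2: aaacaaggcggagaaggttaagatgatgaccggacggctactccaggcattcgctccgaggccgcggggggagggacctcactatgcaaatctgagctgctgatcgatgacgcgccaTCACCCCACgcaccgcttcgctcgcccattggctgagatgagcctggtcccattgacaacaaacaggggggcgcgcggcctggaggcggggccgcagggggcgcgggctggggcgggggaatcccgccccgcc
For mitotic genes, capitals mark TTTGAA or its complement, the letters of the cell cycle homology region. KIF11 is at chr10:92592880-92593129 and ESPL1 at chr12:53268049-53268298, both on the plus strand.
KIF11: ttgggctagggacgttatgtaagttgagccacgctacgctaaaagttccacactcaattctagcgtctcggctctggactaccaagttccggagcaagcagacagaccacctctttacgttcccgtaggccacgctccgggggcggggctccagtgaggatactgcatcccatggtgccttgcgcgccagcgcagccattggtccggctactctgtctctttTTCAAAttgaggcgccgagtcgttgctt
ESPL1: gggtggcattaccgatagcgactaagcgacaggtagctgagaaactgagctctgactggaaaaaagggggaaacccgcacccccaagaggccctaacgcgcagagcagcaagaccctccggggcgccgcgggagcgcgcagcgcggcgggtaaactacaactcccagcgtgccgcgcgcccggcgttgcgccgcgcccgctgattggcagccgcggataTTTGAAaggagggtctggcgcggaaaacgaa
For the chaperones, capitals in DNAJA1 mark GAANNTTC, the core letters of a heat shock element (chr9:33025023-33025272, plus strand).
DNAJA1: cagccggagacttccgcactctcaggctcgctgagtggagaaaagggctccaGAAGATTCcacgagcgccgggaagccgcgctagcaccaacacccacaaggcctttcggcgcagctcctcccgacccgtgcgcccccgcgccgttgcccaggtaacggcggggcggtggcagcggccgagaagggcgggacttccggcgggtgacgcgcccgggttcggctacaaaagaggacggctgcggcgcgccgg

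Windows were found for 8194 of the 10285 genes. Each motif was sought on both strands and counted separately, also where matches of different motifs overlapped. CCAAT was in 13 of 18 cholesterol enzyme windows (72.2%), 27 of 36 mitotic windows (75%) and 36.2% of all windows. TTTGAA was in 18 of 36 mitotic windows (50%) and 8.12% of all, and GAANNTTC in 8 of 21 chaperone windows (38.1%) and 3.93% of all. TCACNCCAC was in 0 of 18 cholesterol enzyme windows, 1 of 15 sterol-sensing windows and 0.818% of all. A match describes letters in these windows, not binding.

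Across the genome the later time differed from the earlier one in many genes by small amounts. Of 10285 genes, 1326 rose (12.9%) and 976 fell (9.49%) at an adjusted p under 0.05, and the median size of these changes was 0.31 on the log2 scale. Of the called genes, 57 changed by more than 2-fold, 23 upwards and 34 downwards. The fit over all 14 libraries with a run term called 415 genes, 307 up (2.98%) and 108 down (1.05%), each of them also called in the same direction within run 2. Of the 2302 genes called within run 2, 2295 had the same direction with the run term. Both fits hold the same 4 libraries of 24 h and 2 h from run 2. Their agreement is therefore not independent support. The estimated spread between libraries of a time (biological coefficient of variation) was 0.0415 within run 2 and 0.103 with the other runs added. Without 24 h library B the count was 1383, and 990 genes were called without each of the 8 libraries in turn.

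**Figure D1:**
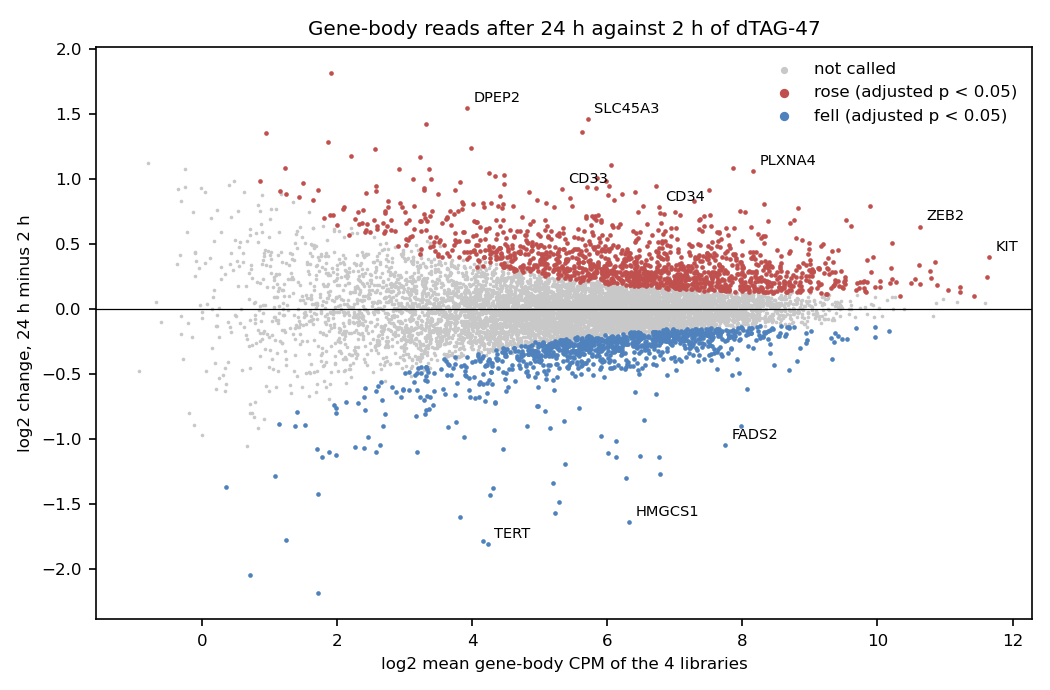
Log2 change in gene bodies at 24 h against 2 h (y axis) plotted against the log2 mean CPM of the 4 libraries (x axis), 1 point per gene, with 1326 genes that rose in red, 976 that fell in blue and the rest in grey. Most called changes lie within 1 log2 unit of 0, and HMGCS1 and TERT lie far below the cloud of points.

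Enzymes of cholesterol synthesis were frequent among the genes that fell furthest. Among the 12 largest falls with enough reads were HMGCS1, MVK, MSMO1, MVD, ACAT2 and CYP51A1 of that pathway, together with MMAB. TERT, ALDH1L2, C7orf31 and LOC283335 were also among them.

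HMGCS1 (NM_001098272, hg19 chromosome 5, 43289493 to 43313595) encodes the synthase that makes HMG-CoA. Its gene body had 40.6 and 37.6 CPM at 24 h, against 128 and 116 CPM at 2 h. It had 52.8 and 47.6 CPM at 0 h and 50.1 and 48.0 CPM at 6 h, so the 2 h libraries stood above all others of the run. The log2 change was -1.64 ± 0.077 (SE; adjusted p = 9.98e-12, edgeR), a level 3.11-fold lower at 24 h.

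Further along the pathway mevalonate is phosphorylated and decarboxylated. MVK, mevalonate kinase (NM_000431, chromosome 12, 110011500 to 110035071), had 20.2 and 17.8 CPM at 24 h and 56.4 and 56.1 CPM at 2 h. MVD, the mevalonate diphosphate decarboxylase (NM_002461, chromosome 16, 88718348 to 88729495), had 9.95 and 10.9 CPM at 24 h and 27.5 and 28.8 CPM at 2 h. Neither pair overlapped, with changes of -1.57 for MVK and -1.43 for MVD, whereas PMVK, the kinase that acts between them, did not pass (0.13, adjusted p = 0.304, edgeR). With the run term MVD had -1.86 and an adjusted p of 0.0502 (edgeR), just outside the threshold.

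MMAB, the enzyme that attaches the adenosyl group to vitamin B12, lies 142 bases from MVK in the listed hg19 intervals. It had 61.7 and 67.6 CPM at 24 h, against 152 and 161 CPM at 2 h (-1.27 ± 0.065, adjusted p = 1.84e-11 in edgeR). The strand counted is not given in the sources used here, so reads of such neighbours cannot be told apart near their shared start.

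ACAT2, the cytosolic thiolase of the pathway's opening step, had 19.7 and 21.6 CPM at 24 h and 54.7 and 50.0 CPM at 2 h (-1.34). Its listed interval overlaps those of TCP1 and LOC100129518. MSMO1, a methylsterol oxidase, had 20.1 and 21.0 CPM at 24 h and 60.6 and 54.1 CPM at 2 h (-1.48). CYP51A1, which demethylates lanosterol, had 25.0 and 25.6 CPM at 24 h and 59.9 and 56.0 CPM at 2 h (-1.19). In each of these genes both 24 h libraries lay below both 2 h libraries and below both 0 h libraries.

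The cholesterol list held 23 enzymes, all measured. Of these 20 fell and 0 rose, against 9.49% and 12.9% of all genes, with a median change of -0.98 against -0.01 over all genes. Both libraries of 24 h lay below both of 2 h in 21 of the 23, against 27.8% of all genes that lay so and 27.9% that lay entirely above. Among the sterol enzymes DHCR7 (-1.10), SQLE (-1.02) and LSS (-0.98) fell. FDFT1, FDPS and IDI1, which act between mevalonate and squalene, changed by -0.61, -0.46 and -0.34, and TM7SF2 had the smallest called fall (-0.31). The 3 members that did not pass were PMVK (0.13), LBR (0.14) and GGPS1 (-0.08). In the run-term fit 12 members fell (1.05% of all genes), and 18 of the 20 calls held without each library in turn. The other 2 were TM7SF2 (adjusted p = 0.0754 without 24 h library B) and EBP (-0.38, 0.176 without 2 h library B; edgeR), and 1 enzyme rose without 2 h library A or 24 h library B.

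The 2 h library of run 1, which took no part in the comparison within run 2, was set against the 2 untreated libraries of its own run. There 22 of the 23 enzymes were higher at 2 h than at 0 h, with a median log2 difference of 1.76, and MVK stood 3.16 and HMGCS1 2.55 above the untreated mean. With 1 library at 2 h this has no test. At 6 h against 0 h the median difference of the list was 0.08 in run 2 and 0.74 in run 3, so the runs differed in how far the enzymes stood above untreated cells at 6 h.

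**Figure D2:**
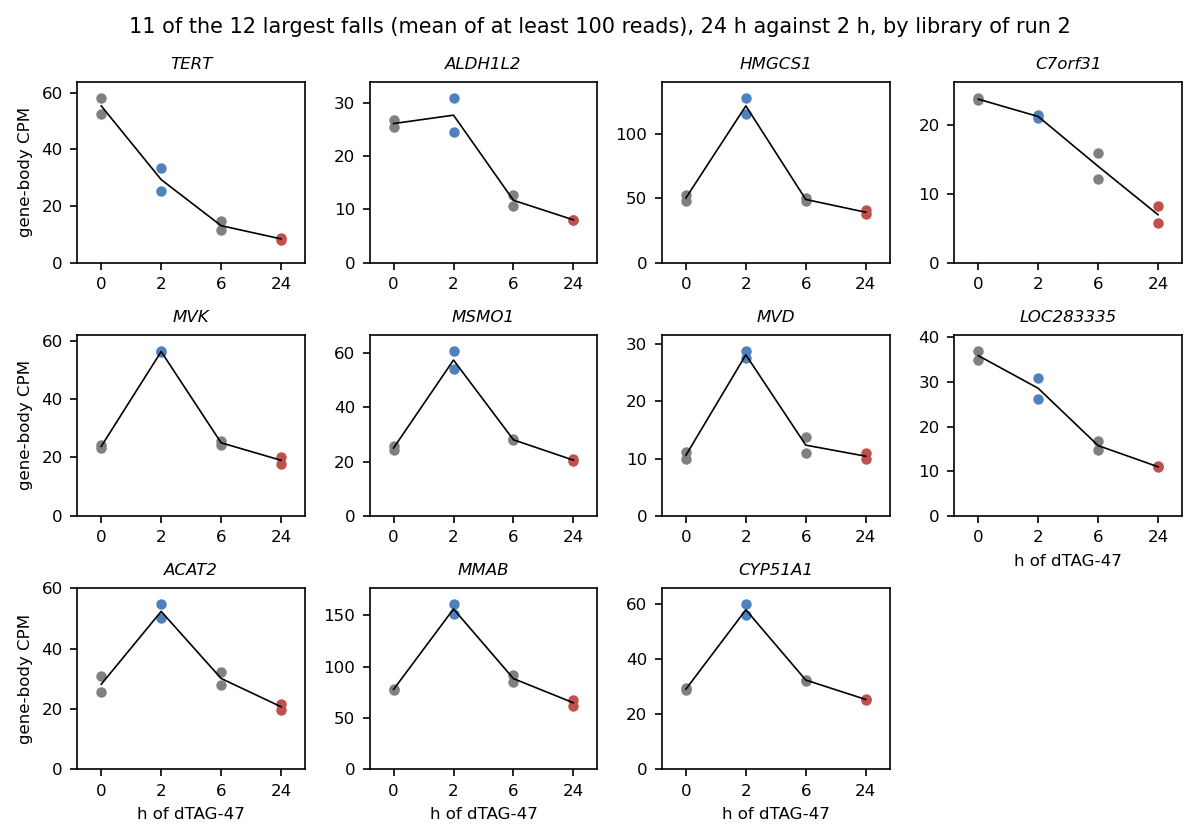
Gene-body CPM (y axes, from 0) of 11 of the 12 largest falls among genes averaging at least 100 reads at 0, 2, 6 and 24 h of dTAG-47 (x axes), 1 point per library of run 2 with 2 h in blue and 24 h in red, and a line through the means. HMGCS1 and the other 6 sterol-linked panels peak at 2 h, whereas TERT, C7orf31 and LOC283335 step down at each time and ALDH1L2 drops after 2 h.

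The genes that sense sterols and take up LDL moved in part with the enzymes. Of 16 measured members, 6 fell and 1 rose, against 9.49% and 12.9% of all genes, with a median of -0.12. INSIG1, which holds the SREBP complex in the endoplasmic reticulum, had 44.4 and 43.1 CPM at 24 h and 101 and 92.0 CPM at 2 h (-1.14 ± 0.073). STARD4, a sterol carrier, changed by -0.87, and SREBF2 by -0.49, with 206 and 204 CPM at 24 h and 287 and 290 CPM at 2 h. MYLIP, a ubiquitin ligase and a target of the LXR receptors, was the member that rose, with 83.8 and 90.0 CPM at 24 h and 53.5 and 58.4 CPM at 2 h (0.64 ± 0.072, adjusted p = 1.49e-06 in edgeR). MBTPS2, a protease that frees SREBPs (-0.29; adjusted p = 0.123 without 24 h library A), and SREBF1 (-0.28; 0.524 without 2 h library B, edgeR) also fell. Without 2 h library A 2 members rose. SCAP (-0.05), MBTPS1 (0.06) and NPC1 (-0.07) did not pass the test.

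Of 15 fatty acid genes, 10 fell and 1 rose, against 9.49% and 12.9% of all genes, with a median of -0.23. The desaturase genes SCD and FADS2 had the largest falls. SCD had 74.5 and 62.1 CPM at 24 h and 146 and 154 CPM at 2 h (-1.14), and FADS2 had 144 and 137 CPM at 24 h and 280 and 300 CPM at 2 h (-1.05). FASN, the fatty acid synthase, changed by -0.85 and FADS1, another desaturase, by -0.65, both past the threshold. ACSL1, which activates fatty acids for use, rose, with 89.3 and 93.4 CPM at 24 h and 63.7 and 68.6 CPM at 2 h (0.46 ± 0.068), and 2 members rose without 2 h library B. With the run term 3 members fell and 1 rose, against 1.05% and 2.98% of all genes, and FASN had an adjusted p of 0.107 (edgeR).

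TERT, the catalytic subunit of telomerase (NM_001193376, chromosome 5, 1253287 to 1295162), had the largest fall among the named genes. It had 8.71 and 8.06 CPM at 24 h, against 25.3 and 33.3 CPM at 2 h. Across the time course it had 52.5 and 58.1 CPM at 0 h and 14.5 and 11.6 CPM at 6 h, so each time lay below the one before it with no overlap. The change was -1.81 ± 0.15 (adjusted p = 1.41e-08, edgeR), a level 3.50-fold lower at 24 h, and -1.73 with the run term. Over all genes 9.49% fell and 12.9% rose. The other telomere genes did not move with it: of 13 measured members of the list, TERT was the only one that fell and TERF2IP (0.34; adjusted p = 0.245 without 24 h library A, edgeR) the only one that rose. Without 2 h library B or either 24 h library 2 members fell, and in 4 of the 8 fits that left out 1 library none rose.

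ALDH1L2 encodes a mitochondrial enzyme of folate metabolism. It had 8.06 and 7.98 CPM at 24 h and 30.9 and 24.4 CPM at 2 h (-1.78 ± 0.14), with 25.4 and 26.7 CPM in untreated cells. C7orf31 had 5.67 and 8.21 CPM at 24 h and 21.4 and 21.0 CPM at 2 h (-1.60). LOC283335, a non-coding transcript, had 11.1 and 10.9 CPM at 24 h and 26.2 and 30.9 CPM at 2 h (-1.38). For all 3 the 24 h libraries were the lowest of the run, and all 3 were called with the run term. The runs differed at earlier times. At 6 h against 0 h ALDH1L2 changed by -1.16 in run 2 and 0.33 in run 3. LOC283335 changed by -1.18 and 0.04, and C7orf31 by -0.74 and -0.83. At 2 h against 0 h in run 1, with 1 library at 2 h, LOC283335 changed by 0.98, ALDH1L2 by -0.57 and C7orf31 by -0.24.

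ALDH1L2 belongs to the list of ATF4 and amino acid response genes. There 10 of 25 measured members fell and 0 rose, against 9.49% and 12.9% of all genes, with a median of -0.22. In edgeR 13 were lower and 0 higher at an unadjusted p under 0.05. The share of all gene bodies at that unadjusted threshold is not given, here or below. Such list counts therefore cannot be read against all genes. PHGDH and PSAT1, which make serine, changed by -0.42 and -0.47, and MTHFD1L, of mitochondrial folate metabolism, by -0.47. The count was 6 without 2 h library B and also without 24 h library B. ATF4 itself had 38.1 and 32.6 CPM at 24 h and 34.1 and 32.2 CPM at 2 h and did not pass (0.09). Among 20 aminoacyl-tRNA synthetases, which charge tRNAs with amino acids, 8 fell and 0 rose, with a median of -0.18 (13 lower and 0 higher at an unadjusted p under 0.05). CARS (-0.43), AARS (-0.40), YARS (-0.40) and IARS (-0.34) had the smallest adjusted p, and YARS overlaps S100PBP. With the run term 2 members of the ATF4 list and 0 of the synthetases fell, against 1.05% of all genes. Of the synthetases 8 were lower there at an unadjusted p under 0.05 in edgeR.

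Chaperone genes were lower at 24 h as well. Of 23 measured heat shock genes 14 fell and 0 rose, against 9.49% and 12.9% of all genes, with a median of -0.23. HSPH1, a partner of HSP70, had 41.0 and 39.8 CPM at 24 h and 62.4 and 51.9 CPM at 2 h (-0.50). DNAJA1, an HSP40 co-chaperone, had 58.0 and 58.7 CPM at 24 h and 84.4 and 74.3 CPM at 2 h (-0.44), and AHSA1, which activates HSP90, changed by -0.45. DNAJA4 changed most (-0.98), with 3.78 and 3.61 CPM at 24 h and 6.71 and 7.89 CPM at 2 h. The stress-induced HSPA1A (-0.32) did not pass, and HSPA1A and HSPA1B (0.32) are near-identical copies whose reads may be split. Among 25 genes of the endoplasmic reticulum stress response 7 fell, among them the chaperones HSP90B1 (-0.41) and PDIA4 (-0.33). XBP1 (0.44), a transcription factor of that response, led the 3 that rose, a share near the 12.9% of all genes. These counts were 4 falls without 24 h library B and 1 rise without 24 h library A. XBP1 had 148 and 158 CPM at 24 h and 116 and 110 CPM at 2 h. Without 2 h library B 1 heat shock gene rose. With the run term 2 heat shock genes fell, against 1.05% of all genes. XBP1 was the 1 endoplasmic reticulum stress gene called there, as a rise, against 2.98% of all genes.

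Genes for making ribosomes were slightly lower. Of 72 measured cytosolic ribosomal protein genes 23 fell and 0 rose, against 9.49% and 12.9% of all genes. Their median was -0.15, and 61 of the 72 had a negative change. RPL10, for example, had 159 and 163 CPM at 24 h and 216 and 206 CPM at 2 h (-0.39), within an interval that overlaps DNASE1L1, and RPL28 had 116 and 119 CPM at 24 h and 150 and 160 CPM at 2 h (-0.40). Untreated cells had 174 and 183 CPM of RPL10, above its 24 h level, and 115 and 122 CPM of RPL28, around its 24 h level. Ribosomal protein genes have many processed copies, so their counts are uncertain. Of 33 genes for ribosome biogenesis 7 fell and 0 rose (median -0.13), among them UTP20 (-0.28), of the small subunit processome. The ribosomal protein count was 14 without 24 h library B, and that for biogenesis was 4 without 24 h library B or either 0 h library and 3 without either 6 h library. Of 45 respiratory chain genes 9 fell and 1 rose (median -0.10), led by COX6B1 (-0.54) and CYCS (-0.40), and 0 rose without 2 h library A or 24 h library B. COX6B1 had 31.2 and 28.3 CPM at 24 h, above the untreated 22.8 and 27.9 CPM. CYCS had 66.1 and 70.5 CPM at 24 h, below the untreated 73.5 and 75.2 CPM. In both genes the 2 h libraries stood above the untreated ones. The run-term fit kept 1 ribosomal protein gene, 0 biogenesis genes (3 lower at an unadjusted p under 0.05) and 2 respiratory genes in edgeR. Over all genes 1.05% fell in that fit.

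The genes that rose furthest included several of myeloid cells. DPEP2, a dipeptidase that cleaves leukotrienes (NM_022355, chromosome 16, 68021293 to 68033364), had 22.5 and 22.9 CPM at 24 h, against 7.23 and 8.23 CPM at 2 h. It had 5.94 and 8.27 CPM at 0 h and 9.13 and 9.12 CPM at 6 h, so only the 24 h libraries were high. The change was 1.55 ± 0.15 (adjusted p = 9.92e-08, edgeR), a level 2.93-fold higher at 24 h.

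SLC45A3, a membrane transporter (NM_033102, chromosome 1, 205626981 to 205649630), had 79.4 and 74.8 CPM at 24 h and 25.7 and 30.0 CPM at 2 h. Its untreated libraries had 34.6 and 32.1 CPM, just above the 2 h ones, and the change was 1.47 ± 0.086 (adjusted p = 1.18e-10, edgeR). PRAM1, an adaptor protein of neutrophil adhesion (NM_032152, chromosome 19, 8554940 to 8567538), had 70.9 and 71.9 CPM at 24 h and 25.6 and 29.8 CPM at 2 h (1.36 ± 0.084). PRAM1 had 23.4 and 22.9 CPM at 0 h and 38.8 and 39.1 CPM at 6 h, so its libraries stood in the order of time.

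BCL2A1, an antiapoptotic BCL2 relative, had 19.2 and 25.4 CPM at 24 h and 8.35 and 10.5 CPM at 2 h (1.24 ± 0.16). Its 2 h libraries also lay below the untreated ones (13.4 and 16.4 CPM), and with the run term its change was 0.90 (adjusted p = 0.117, edgeR). Of 14 measured BCL2 family genes 4 rose, among them BMF (0.82), which promotes apoptosis, MCL1 (0.32), which opposes it, and BCL2L11 (0.19), which promotes it. BCL2 itself fell slightly (-0.13). Over all genes 12.9% rose and 9.49% fell. The family's median was 0.16 within run 2 and 0.07 with the run term. BCL2A1 and BMF kept their calls without each library in turn, whereas without 24 h library A 2 members rose, the adjusted p of MCL1 being 0.0515, and BCL2L11 had 0.161 without 24 h library B (edgeR). The adjusted p of BCL2 was 0.124 without 24 h library A (edgeR), and no member fell in 7 of the 8 fits that left out 1 library.

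Longer genes were among the rises too. PLXNA4, a semaphorin receptor (NM_020911, chromosome 7, 131808091 to 132261323), had 395 and 378 CPM at 24 h and 177 and 193 CPM at 2 h (1.06 ± 0.053, adjusted p = 1.47e-11 in edgeR). ADAM12, a membrane metalloprotease, had 303 and 327 CPM at 24 h and 134 and 162 CPM at 2 h (1.09). SIPA1L2, a RAP GTPase regulator, had 93.8 and 88.3 CPM at 24 h and 43.6 and 40.7 CPM at 2 h (1.11). In these 3 genes the 6 h libraries lay between those of 2 h and of 24 h.

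HLX, a homeobox factor of haematopoietic cells, had 29.5 and 30.0 CPM at 24 h and 12.4 and 16.6 CPM at 2 h (1.03 ± 0.12). SUCNR1, the succinate receptor, had 11.6 and 16.4 CPM at 24 h and 6.19 and 7.06 CPM at 2 h (1.08 ± 0.18). ZNF774 had 12.3 and 13.7 CPM at 24 h and 5.29 and 6.23 CPM at 2 h (1.17). Its adjusted p was 0.150 with the run term (edgeR). C19orf38 changed by 1.05. LOC100505746 changed by 1.43, with 12.9 and 16.2 CPM at 24 h and 4.25 and 6.50 CPM at 2 h, but its listed interval overlaps that of the integrin gene ITGB2, which itself rose by 0.65, and without the strand their reads cannot be told apart.

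**Figure D3:**
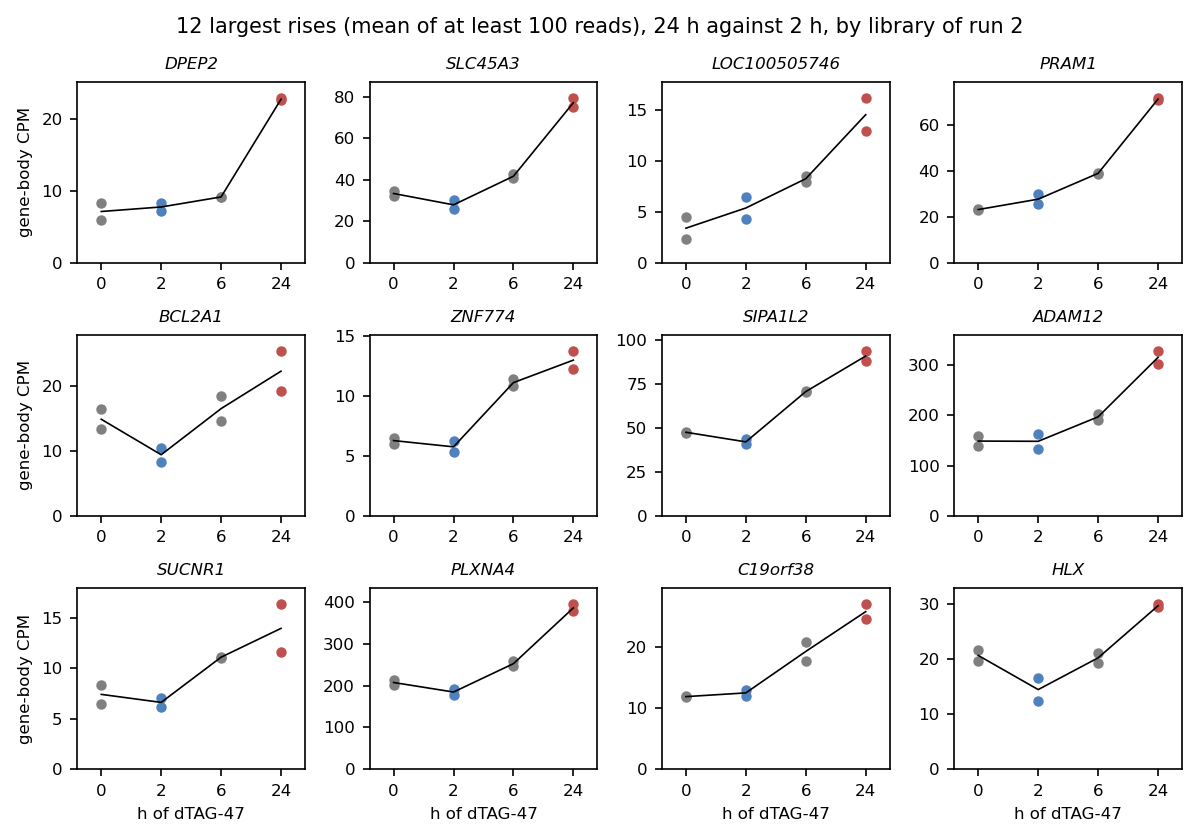
Gene-body CPM (y axes, from 0) of the 12 largest rises among genes averaging at least 100 reads at 0, 2, 6 and 24 h of dTAG-47 (x axes), 1 point per library of run 2 with 2 h in blue and 24 h in red, and a line through the means. In DPEP2 the 24 h libraries stand alone at 22.5 and 22.9 CPM, while ZNF774 and SIPA1L2 are already raised at 6 h.

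Receptors that mark blood progenitors were higher at 24 h. Of 15 measured members of that list 9 rose and 0 fell, against 12.9% and 9.49% of all genes, with a median of 0.40. KIT, the stem cell factor receptor, had 3682 and 3687 CPM at 24 h and 2838 and 2729 CPM at 2 h (0.40 ± 0.031, adjusted p = 6.14e-09 in edgeR). Untreated cells had 4417.8 and 4347.5 CPM of KIT, so its 24 h level stood between those of 2 h and 0 h. CD34, the progenitor surface antigen, had 141 and 134 CPM at 24 h and 78.4 and 81.4 CPM at 2 h (0.78 ± 0.061), above the untreated 85.2 and 80.8 CPM. CD44, the hyaluronan receptor, had 327 and 330 CPM at 24 h and 208 and 184 CPM at 2 h (0.75 ± 0.053). FLT3, a receptor kinase often mutated in acute myeloid leukaemia at large, had 67.2 and 64.7 CPM at 24 h and 44.0 and 40.2 CPM at 2 h (0.65 ± 0.075). The run-term fit kept 7 of the list (2.98% of all genes), and the list's median there was 0.21. CSF3R (-0.05), IL2RG (-0.01) and CSF2RB (0.03) were among the 6 members that did not pass within run 2.

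Of 24 measured haematopoietic transcription factors 13 rose and 0 fell, against 12.9% and 9.49% of all genes, with a median of 0.25. In edgeR 16 were higher and 0 lower at an unadjusted p under 0.05. ZEB2, a zinc finger repressor, had 1900.2 and 1956 CPM at 24 h and 1259.8 and 1223 CPM at 2 h (0.64 ± 0.034, adjusted p = 4.05e-11 in edgeR), below the untreated 2198.5 and 2218 CPM. ERG, an ETS factor of stem cells, had 1036 and 1045 CPM at 24 h and 781 and 815 CPM at 2 h (0.38 ± 0.038). IKZF1, the Ikaros factor, had 585 and 586 CPM at 24 h and 471 and 482 CPM at 2 h (0.30 ± 0.040). BCL11A changed by 0.29. SPI1 (0.24), which drives monocyte fates, and GFI1 (0.26), which drives granulocyte fates, also rose. SPI1 had an adjusted p of 0.109 without 2 h library A (edgeR). The largest member change was that of ID2, an inhibitor of helix-loop-helix factors, at 1.82, but on 6.41 and 5.30 CPM at 24 h and 1.27 and 2.01 CPM at 2 h. RUNX1 (0.04), TAL1 (-0.01), LYL1 (0.03) and CEBPA (0.17) did not pass. With the run term 7 factors were called, all up, against 2.98% of all genes up and 1.05% down.

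Genes listed for granules and maturation of myeloid cells followed, with 12 of 22 measured members up and 1 down (median 0.37). The members up include CD22 (0.82), a lectin of B cells. The shares over all genes were 12.9% and 9.49%. CD33, a myeloid surface lectin, had 54.3 and 50.8 CPM at 24 h and 29.0 and 26.5 CPM at 2 h (0.92 ± 0.098). MPO, the granule peroxidase and among the most read genes of the line, had 1248 and 1310.3 CPM at 24 h and 1046 and 1135 CPM at 2 h (0.23 ± 0.041). CYBA, a subunit of the NADPH oxidase, was the member that fell (-0.44), and its interval lies 856 bases from that of MVD. Many maturation genes were not measured, 24 of the 46 listed, among them ELANE, LYZ and ITGAM, so the list describes only the members with counts. The run-term fit called 4, all up, against 2.98% of all genes up and 1.05% down. Of the 8 measured markers of the line 6 rose and 0 fell, and all of these also belong to the lists above.

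Mitotic genes were modestly higher. Of 44 measured members 21 rose and 0 fell, against 12.9% and 9.49% of all genes. The median was 0.18, and 42 of the 44 changes were positive. KIF11, a spindle motor, had 225 and 237 CPM at 24 h and 190 and 181 CPM at 2 h (0.32 ± 0.051). ESPL1, the separase that frees sister chromatids, had 73.0 and 68.7 CPM at 24 h and 50.6 and 52.4 CPM at 2 h (0.46 ± 0.075). CCNB1, the mitotic cyclin, had 53.4 and 56.9 CPM at 24 h and 41.7 and 40.6 CPM at 2 h (0.42 ± 0.082), and ANLN, of the cleavage furrow, changed by 0.27. With the run term 0 of the 44 were called, against 2.98% of all genes that rose and 1.05% that fell there. In that fit 9 were higher and 0 lower at an unadjusted p under 0.05 (edgeR), a share not given for all genes. The median was the same to 2 decimals (0.18). Without 24 h library B the count was 13, DESeq2 on run 2 called 16, and 7 of the 21 calls held without each library in turn.

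Genes for DNA replication leaned the other way. Of 44 measured members 15 fell and 3 rose, against 9.49% and 12.9% of all genes, with a median of -0.12. The helicase genes MCM4 and MCM6 changed by -0.35 and -0.31, and CDC45, which joins that helicase, by -0.28. MCM4, for instance, had 94.8 and 99.6 CPM at 24 h and 126 and 122 CPM at 2 h. Untreated cells had 100 and 104 CPM of MCM4, 173 and 189 CPM of MCM6 and 159 and 158 CPM of CDC45. The 24 h levels of MCM6 were 177 and 178 CPM and those of CDC45 171 and 161 CPM. In each of these genes the 2 h libraries stood above the untreated ones. PRIM1, the primase (0.35), PCNA, the sliding clamp (0.46), and RRM2, of ribonucleotide reductase (0.24), were the members that rose. PCNA differed between its 2 h libraries (329 and 520 CPM) more than between those of 24 h (566 and 605 CPM). Among 27 E2F, RB and cyclin genes 6 rose, including CDKN2C (0.47), CDK6 (0.25) and E2F2 (0.30), and TFDP1 fell (-0.34). Without 24 h library B 7 replication genes fell, the adjusted p of PCNA was 0.0906 and that of TFDP1 0.0505, and RRM2 had 0.351 without 2 h library B (edgeR). Of the E2F list 3 fell without 2 h library A or 24 h library A and 0 without 24 h library B. With the run term MCM4 fell, PRIM1 rose, and 0 of the E2F list were called (7 higher and 1 lower at an unadjusted p under 0.05, edgeR). The median of the replication list was -0.04 in that fit, where 2.98% of all genes rose and 1.05% fell.

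Genes of signal response were also higher. Of 27 immediate early and MAPK feedback genes 11 rose and 0 fell (median 0.27), against 12.9% and 9.49% of all genes. Of 4 measured phosphatases of the list that act on MAP kinases, DUSP5 and DUSP6 rose, while DUSP1 (0.07) and DUSP2 (0.43) did not pass. DUSP5 had 29.1 and 29.9 CPM at 24 h and 14.9 and 15.3 CPM at 2 h (0.96 ± 0.11), and DUSP6 had 67.3 and 68.6 CPM at 24 h and 43.3 and 39.4 CPM at 2 h (0.72 ± 0.077). FOSL2, a subunit of AP-1, had 269 and 256 CPM at 24 h and 170 and 169 CPM at 2 h (0.63 ± 0.049), below the untreated 297 and 290 CPM. MYC had 228 and 217 CPM at 24 h and 158 and 175 CPM at 2 h (0.42 ± 0.056). Without 24 h library B 7 members rose, and DUSP6 was the list's member called with the run term. MYC there had 0.21 (adjusted p = 0.596, edgeR), in a fit where 2.98% of all genes rose and 1.05% fell.

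In the MYC and MAX network, 6 of 16 members rose and 2 fell, against 12.9% and 9.49% of all genes. The share of falls was near that of all genes. MXD3 (0.64), TXNIP (0.49) and MXI1 (0.35) were among the rises, and MXD4 (-0.43) and CAD (-0.24) were the falls. MXD3 overlaps PRELID1 in the listed intervals, and MXD4 had an adjusted p of 0.196 without 2 h library B (edgeR). The falls were 1 in number without 2 h library B or 24 h library B.

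Of 33 measured interferon-stimulated genes and regulators 14 rose and 0 fell (median 0.25), against 12.9% and 9.49% of all genes. IFI16, a DNA sensor, had 266 and 261 CPM at 24 h and 180 and 176 CPM at 2 h (0.57 ± 0.048, adjusted p = 1.95e-08 in edgeR). IFIH1, an RNA sensor, had 37.5 and 40.2 CPM at 24 h and 30.5 and 25.3 CPM at 2 h (0.48), and PARP14 had 67.9 and 64.8 CPM at 24 h and 53.6 and 45.0 CPM at 2 h (0.43). Of the list's 53 genes, 20 were not measured, including ISG15, MX1 and the OAS genes, and IRF1 (-0.06) did not pass. Without 24 h library A 7 members rose, without 2 h library A 1 fell, DESeq2 on run 2 called 8, and in the run-term fit 2 were called, IFI16 and IFIH1. Over all genes 2.98% rose and 1.05% fell in the run-term fit. Of 17 NF-kB genes 5 rose within run 2, led by IL8 (0.91) and TNFAIP3 (0.83), and RELB fell (-0.51). Without 2 h library A 2 of these fell, and without 24 h library B 3 rose and IL8 had an adjusted p of 0.115 (edgeR).

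Among remodellers and loop factors the shares of called genes are read against 12.9% of all genes that rose and 9.49% that fell. Of 12 measured ISWI subunit genes BAZ2B rose, with 646 and 722 CPM at 24 h and 478 and 485 CPM at 2 h (0.51 ± 0.047, adjusted p = 8.07e-08 in edgeR). It encodes a bromodomain protein that pairs with ISWI motors, and the other 11 members, SMARCA5 included, did not pass. Of 35 SWI/SNF, CHD and INO80 genes 4 rose and 3 fell, shares near those of all genes, SMARCA2 (0.24), an ATPase of SWI/SNF, among the rises. These counts were 2 rises without either 24 h library, 0 falls without 24 h library B and 1 fall without either 6 h library. Of 17 CTCF and cohesin genes 3 fell and 1 rose. STAG1, a cohesin subunit, had 416 and 413 CPM at 24 h and 529 and 489 CPM at 2 h (-0.30 ± 0.045). CTCF, which binds at loop anchors, had 148 and 151 CPM at 24 h and 166 and 166 CPM at 2 h (-0.15), with an adjusted p of 0.131 without 24 h library A (edgeR). ZNF143 (-0.33) had 0.0665 without 24 h library B, and ESCO1, the member that rose (0.17), lost its call without 7 of the 8 libraries left out 1 at a time. The falls were 1 in number without 24 h library B. RAD21 (0.13) and SMC3 (-0.01) did not pass. With the run term 0 of the CTCF and cohesin list were called. STAG1 there had -0.24 (adjusted p = 0.170) and ZNF143 -0.28 (0.156, edgeR). In that fit 1 ISWI gene and 1 SWI/SNF, CHD or INO80 gene rose and 0 fell, against 2.98% and 1.05% of all genes.

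**Figure D4:**
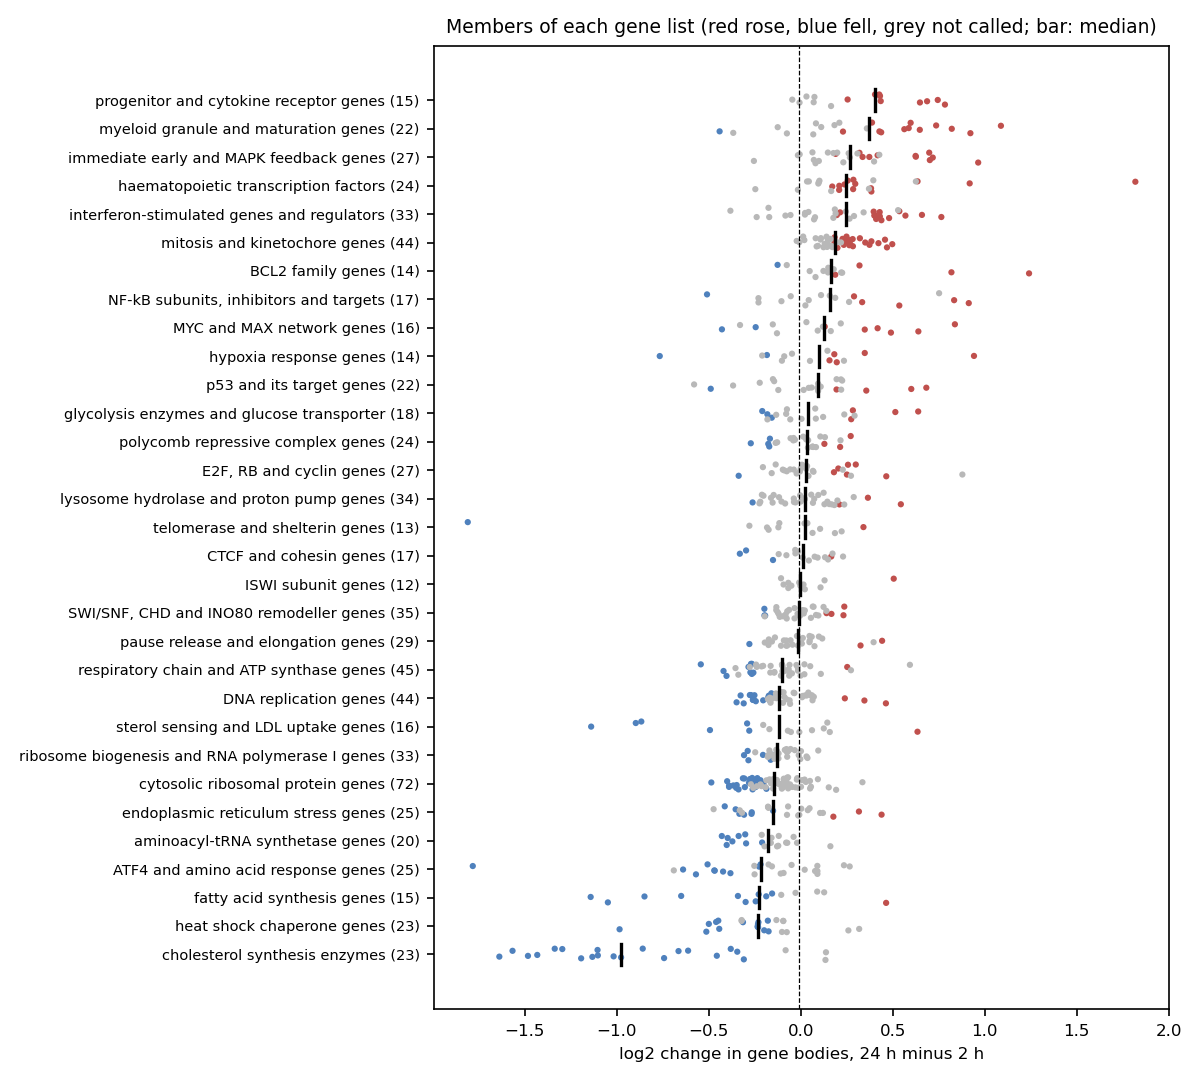
Log2 change in gene bodies at 24 h against 2 h (x axis) of each measured member of 31 gene lists (y axis, number measured in brackets), with members that rose in red, those that fell in blue, the rest in grey, a black bar at each list's median and a dashed line at the median of all genes. The cholesterol list lies lowest with a median of -0.98 and the progenitor receptor list highest at 0.40.

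Near promoters, where paused polymerase is counted, few single genes passed. Of 9768 genes tested 3 fell (0.0307%) and 1 rose (0.0102%), while 1080 had an unadjusted p under 0.05. HSPH1 fell there by 1.66 on the log2 scale, with 98.9 and 76.4 promoter-proximal CPM at 24 h and 246 and 306 at 2 h (adjusted p = 0.0012, edgeR), and its gene body also fell (-0.50). POLR3E, a subunit of RNA polymerase III, had 2307 and 2149 promoter-proximal CPM at 24 h and 4874.5 and 5569.6 at 2 h (-1.23), while its gene body had 126 and 124 CPM at 24 h and 123 and 133 CPM at 2 h. STX1A, a syntaxin, had 94.0 and 63.0 promoter-proximal CPM at 24 h and 188 and 198 at 2 h (-1.31). EVL, an actin regulator, was the gene that rose (1.81), with 24.2 and 35.0 promoter-proximal CPM at 24 h and 10.1 and 7.34 at 2 h. The 14-library fit with a run term called 0, with 500 genes at an unadjusted p under 0.05 in edgeR, and DESeq2 on run 2 called 29. Leaving out 24 h library A gave 255 calls and leaving out 24 h library B 61, against 1 without 2 h library A and 2 without 2 h library B or either 6 h library. The spread between libraries was larger near promoters, at 0.142 against 0.0415 in gene bodies.

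The fall of the cholesterol enzymes was larger in gene bodies than near their promoters. Their median promoter-proximal change was -0.12, with 17 of 23 lower, against -0.98 in gene bodies. The promoter-proximal change lay above the gene-body change in 22 of 23, by a median of 0.75. It did so in 72.3% of the 942 genes that fell in gene bodies and were measured in both regions, by a median of 0.19, and in 50.2% of all 9767 genes. Genes chosen for a gene-body fall thus also show this direction, and no test set the list apart from them. HMGCS1 had 41.0 and 44.1 promoter-proximal CPM at 24 h and 50.1 and 46.4 at 2 h.

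The difference between the regions was tested gene by gene with limma. HMGCS1 (1.46 ± 0.23; adjusted p = 0.0349) was among the 2 of 9767 genes called (0.0205%), and 969 genes had an unadjusted p under 0.05. With only the 4 libraries compared, or with the run term, 0 genes were called (632 and 457 at an unadjusted p under 0.05). The count was 89 without 24 h library A, 38 without 24 h library B and 0 without any 1 of the 2 h and 6 h libraries. INSIG1 changed by -0.9959 near its promoter and -1.14 in its gene body, and SREBF2 by -0.71 and -0.49, and neither difference passed the test. The promoter share of all reads was lowest in 2 h library A. Its part in this result was not tested.

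**Figure D5:**
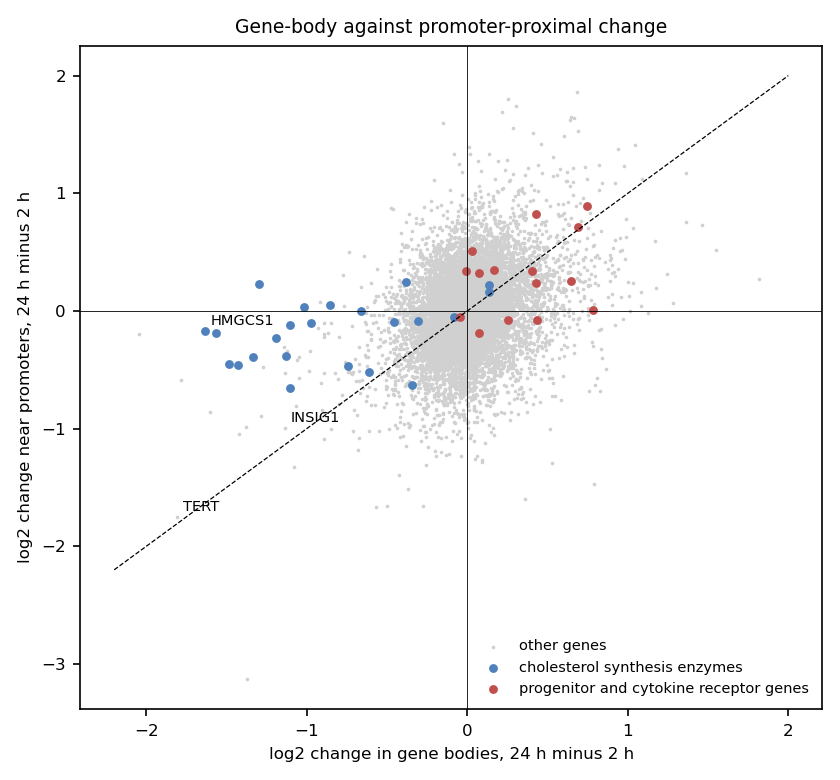
Log2 change near promoters (y axis) against log2 change in gene bodies (x axis) at 24 h against 2 h, 1 point per gene, with cholesterol synthesis enzymes in blue, progenitor receptor genes in red and other genes in grey. The dashed line marks equal change, and 22 of the 23 blue points lie above it, with HMGCS1 among the furthest.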

How the data were processed

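Precision run-on sequencing (PRO-seq) counts of 14 libraries of the tagged Kasumi-1 line were used, with 3 number codes, here called runs. The deposited raw counts per transcript, in gene bodies and near promoters, were made by the authors on hg19. Tools listed without a role in the submitters' processing notes are Bowtie2 2.2.2, DESeq, DESeq2, HOMER, SAMtools and Trimmomatic 0.32. The counts were identical across the 3 tables of each region, and 84 columns of normalized values were not used. The parental line was not analysed here. The table headers give each library a time, a letter and a number code, and the letters were not matched to numbered replicates.

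For each symbol 1 transcript was kept. The 8 libraries of run 2 were fitted together in edgeR 4.0.16 (TMM scaling, filterByExpr, quasi-likelihood test, R 4.3.3), and 24 h was set against 2 h with Benjamini-Hochberg adjustment over all genes at 0.05. A second fit held all 14 libraries with a run term. The change near promoters minus that in gene bodies was tested with limma 3.58.1 on log2 CPM with a prior count of 2. Gene-body depth in run 2 was 11182894 to 16138846 reads. DESeq2 1.42.0, other filters, scalings and thresholds, a block for the library letter and leaving out each library were alternatives. Levels at 0 and 6 h are given as description.

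The rule for naming genes took, by log2 change, the top 12 in each direction that passed the test and averaged at least 100 reads. It also took genes called near promoters (up to 5 each way), the 4 best-ranked called members per list by adjusted p, members needed to describe a list, and SMARCA5. Some genes that met it are not reported here. The comparison, lists and members were chosen with earlier results of these data known. Simulated counts had 200 genes changed at 24 h alone, by 0.5 or 1 on the log2 scale. In the data the called gene-body changes had a median size of 0.31, smaller than either, so these rates do not cover most of them. The gene-body test recovered 87% of genes changed by 0.5 and 100% of those changed by 1, with 15 false among 202 calls. Near promoters it recovered 7% and 67%, with 4 false among 78 calls, and the test of the difference between regions recovered 61.5% of changes of 1, with 10 false among 133.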

Additional observations from a re-analysis of the deposited data

How the results depend on the processing

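Gene-body calls (2302; 1326 up and 976 down) numbered 415 with the run term (307 up, 108 down), 1341 at an adjusted p under 0.01 (454 down), and 307 when at least a 1.5-fold change was also required (206 up, 101 down). Falls numbered 623 with only the 4 libraries compared and 562 by DESeq2, which called 1584 in all. Leaving out 1 library gave 1383 to 2420 calls, 854 to 1440 up and 529 to 1099 down, the fewest without 24 h library B. A fit that leaves 1 library at a time point assumes that it varies like the other groups. Near promoters the 4 calls became 1 with 4 libraries, 0 with the run term, 29 by DESeq2, 2 with a minimum mean of 100 counts, 1 at 0.01, 26 with the gene-body TMM factors, and 1 to 255 with 1 library left out. The 2 calls for the difference between regions became 0 with 4 libraries, with the run term and at 0.01, and 0 to 89 with 1 library left out.

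With the library letter as a replicate block 2355 gene-body genes, 14 promoter-proximal genes and 3 region differences were called. Libraries of the same letter did not deviate together at 24 h and 2 h (correlation 0.0219). At 0 h and 24 h the correlation was 0.185, the largest between any times. The letters were not taken as pairs, and the block kept the call of each of the 137 named genes. With the run term 63 of the 137 kept their side of the threshold and direction, 73 no longer passed and 1 reversed, and the cause was not tested. With 1 library left out 118 to 133 kept both. The genes that reversed had not been called: POLR3E in gene bodies was -0.0908 to 0.0148 with 1 library left out, and SMARCA5 was 0.097 with the run term, 0.00137 with DESeq2 size factors, 0.00014 in DESeq2, 0.00313 with a minimum mean of 100 counts, and -0.133 to 0.112 with 1 library left out. Near promoters changes of 0.5 on the log2 scale were seldom recovered in simulation (7%), and the parts of depth and of the spread between libraries in this were not tested.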

Other observations

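Genes of glucose use and low oxygen were split. Of 14 measured hypoxia response genes 5 rose and 2 fell, against 12.9% and 9.49% of all genes, with a median of 0.10. NDRG1, a differentiation-linked gene induced by low oxygen, had 69.6 and 67.2 CPM at 24 h and 32.7 and 38.5 CPM at 2 h (0.94 ± 0.082, adjusted p = 3.23e-08 in edgeR). BHLHE40, a repressor induced by low oxygen, had 7.98 and 7.29 CPM at 24 h and 11.9 and 14.04 CPM at 2 h (-0.77). Without 1 library the rises numbered 2 (either 6 h library or 24 h library B) or 3 (2 h library B or 24 h library A), and 1 fell without 24 h library A. Of 18 glycolysis genes 4 rose and 3 fell, with a median of 0.04 within run 2 and -0.09 with the run term. SLC2A3, a glucose transporter, had 27.7 and 24.1 CPM at 24 h and 16.7 and 16.5 CPM at 2 h (0.64 ± 0.11), and HK2, hexokinase, changed by 0.28. Without 24 h library B 2 rose and 0 fell, and the falls were 5 without 2 h library A and 1 without 2 h library B.

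Of 29 pause release and elongation genes 2 rose and 1 fell, against 12.9% and 9.49% of all genes. AFF1, a scaffold of the super elongation complex, had 319 and 322 CPM at 24 h and 235 and 236 CPM at 2 h (0.44 ± 0.045), and was called with the run term (adjusted p = 0.000995, edgeR). The other rise, HEXIM1 (0.33), had an adjusted p of 0.333 without 2 h library A, and the fall, GTF2F1 (-0.28), had 0.351 without 24 h library B (edgeR). Of 34 lysosome genes 3 rose, including the regulator TFE3 (0.54), and 1 fell, both below the shares over all genes. Without 2 h library B 6 rose and 0 fell, and 0 fell without 24 h library B.

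Called genes differed in length. Among the longest 2571 genes, from 56.3 kb, 23.9% rose and 8.87% fell, against 7.35% and 5.91% in the shortest 2572, up to 10.3 kb. In the groups between, by increasing length, 8.32% and 12.02% rose and 12.4% and 10.8% fell, so falls did not increase steadily with length. Median length was 50.1 kb for genes that rose, 26.4 kb for those that fell and 24.8 kb for all genes. Longer genes collect more reads, and the part of length in the calls was not tested.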
